A study of Mus musculus with 4 samples.

Results

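The genes described here encode 10 peptidases that act, or can act, at the cell surface: *Enpep*, *Anpep*, *Lnpep*, *Ace*, *Mme*, *Ece1*, *Dpp4*, *Fap*, *Mmp14* and *Adam19*. They were found by an exact match of the gene symbol among 53379 gene identifiers, and each symbol matched 1 identifier. The set was put together around *Enpep* and selected on measured values, the expected counts and TPM of these same libraries at PD800 and PD100, so the values of the 10 genes in that contrast are a description and carry no test. RNA was sequenced from DKO741 mouse embryonic stem cells (mESCs), 1 line recovered from E14 mESCs in which both *Terc* alleles, encoding the telomerase RNA, had been targeted. Cells at population doubling 100 (PD100, pre-ALT) were compared with cells at population doubling 800 (PD800, post-ALT), where ALT is telomere maintenance without telomerase, and each group had 2 libraries. Both groups were Terc-/-, came from the same targeting with a PGK-neo construct, selection with G418 and Ganciclovir and adenoviral Cre, were maintained on mouse embryonic fibroblast feeders and were grown without feeders for the experiment. Since PD100 and PD800 are earlier and later stages of a single line, time in culture and ALT cannot be told apart.

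Ectopeptidases are enzymes whose catalytic part faces the outside of the cell, where they trim or inactivate peptide hormones before these reach their receptors. Renin and ACE make angiotensin II, glutamyl aminopeptidase (*Enpep*) removes its first residue, and aminopeptidase N (*Anpep*) trims the product further. Neprilysin (*Mme*) and endothelin-converting enzyme (*Ece1*) cut short peptides internally, while DPP4 and FAP remove dipeptides after proline. MMP14 and ADAM19 are metalloproteinases that cut larger proteins, the former collagen and the precursor of MMP2, the latter membrane proteins such as neuregulin. *Enpep*, *Anpep* and *Dpp4* are known from the brush borders of kidney and intestine, and *Mmp14* and *Fap* from mesenchyme.

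Most of the members share a short catalytic sequence that the choice of genes did not use. It is shown because it marks the active site from which these enzymes take their class. The coding sequences below were read 5′ to 3′ from GENCODE M21 transcripts (GRCm38), and the capitals mark the codons for the zinc-binding histidines and the catalytic glutamate of the metallopeptidases, or the codon of the catalytic serine of DPP4 and FAP.
Enpep: CACGAActtgtaCAC
Anpep: CACGAGctggccCAT
Lnpep: CACGAActggcaCAT
Ace, amino-terminal domain: CACGAGatgggcCAC
Ace, carboxy-terminal domain: CACGAAatgggcCAC
Mme: CATGAAatcacaCAT
Ece1: CACGAGctgactCAC
Dpp4: ggctggTCAtatgga
Fap: ggctggTCCtacgga
Mmp14: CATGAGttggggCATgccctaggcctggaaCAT
Adam19: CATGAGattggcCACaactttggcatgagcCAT
The *Enpep* stretch lay in exon 5 of 20 on the minus strand (chr3:129309772-129309786), and that of *Anpep* in exon 5 of 20 (chr7:79839166-79839180). That of *Lnpep* lay in exon 6 of 18 (chr17:17570877-17570891). *Ace* held the stretch in both of its domains, in exon 8 (chr11:105972910-105972924) and exon 20 (chr11:105985094-105985108) of 25, and 14 of the 15 bases were identical. The stretches of *Mme* (chr3:63362021-63362035) and *Ece1* (chr4:137957172-137957186) lay in exon 18 of 23 and exon 17 of 20. Those of *Dpp4* (chr2:62347909-62348506) and *Fap* (chr2:62504597-62512391) each spanned the junction of exons 21 and 22 of 26, at codon 622 in both genes. *Mmp14* (chr14:54437627-54437659, exon 5 of 10) and *Adam19* (chr11:46125050-46125082, exon 11 of 23) had a longer stretch of 33 bases with a further histidine codon. Among the aminopeptidases, 13 of 15 bases were identical between *Anpep* and *Lnpep*, 12 between *Enpep* and *Lnpep* and 10 between *Enpep* and *Anpep*. All metallopeptidase stretches were found by their motif, so in the capital codons only the last base could differ. Likeness in the 15 bases did not follow the families. Of these, 13 were identical between the former *Ace* stretch and the start of that of *Adam19*. There were 12 between *Anpep* and *Ece1*, and only 9 between *Mme* and *Ece1*.

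*Enpep* (ENSMUSG00000028024.14, chr3:129269175-129332720, minus strand) was assigned 464 and 420 expected counts at PD100, but 0 and 1 at PD800. An expected count is RSEM's estimate of the number of read pairs from a gene. Scaled to library size with TMM factors (CPM), these were 11.5 and 12.6 at PD100 and 0 and 0.0311 at PD800. Both PD800 libraries lay under the floor of 3 counts (0.0834 and 0.0933 CPM), a level that counting alone cannot tell from 0. The summed, library-scaled count was 816-fold higher at PD100 than at PD800, with an exact 95% counting interval of 146 to 32263, which is wide because it rests on 1 read pair at PD800. Such intervals and floors cover counting error only. The log2 fold change fitted by edgeR was -9.37 ± 0.36 (standard error, SE), a value that depends on the small count that the fit adds, and 4 of the 19148 tested genes had a lower one. In bulk RNA, fewer cells of a type and less RNA per cell cannot be told apart, so these values do not say whether all or some of the PD100 cells carried the *Enpep* transcript.

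*Anpep* (ENSMUSG00000039062.15, chr7:79821803-79861059, minus strand), the next aminopeptidase of the angiotensin route, stood at 8.96 and 9.07 CPM at PD100 and at 6.31 and 6.56 CPM at PD800. The groups did not overlap, and the mean was 1.40-fold lower at PD800 (log2 fold change -0.49 ± 0.10 SE). On the per-length scale (TPM, in which RSEM divides by transcript length), its values were 2.03 and 2.83 at PD100 and 1.45 and 1.43 at PD800. The 2 PD100 libraries thus differed more in TPM than in CPM: RSEM gave the gene an effective length of 3431.61 bases in the former and of 2258.39 bases in the latter, which reflects the isoforms to which it assigned the reads. *Lnpep* (ENSMUSG00000023845.6, chr17:17521410-17625050, minus strand), the insulin-regulated aminopeptidase that travels with glucose transporter vesicles and degrades oxytocin, differed in the other direction. It had 43.4 and 41.1 CPM at PD100 and 67.0 and 68.2 CPM at PD800, 1.60-fold higher on average (log2 fold change 0.68 ± 0.08 SE). At PD800 the 3 aminopeptidases of the set thus stood near 0, moderately lower and higher than at PD100.

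*Ace* (ENSMUSG00000020681.14, chr11:105967945-105989964, plus strand), which forms angiotensin II, was low in every library. Its counts were 19 and 28 at PD100 and 21 and 9 at PD800, that is 0.470 and 0.838 CPM against 0.584 and 0.280 CPM. The CPM groups overlapped, and the log2 fold change of -0.56 had an SE of 0.47. In TPM they did not overlap (0.11 and 0.15 against 0.09 and 0.04), so at this depth the scale decided whether the groups separated. Neprilysin, which degrades enkephalins, natriuretic peptides and tachykinins, is encoded by *Mme* (ENSMUSG00000027820.12, chr3:63241537-63386030, plus strand), and it had 41.2 and 32.3 CPM at PD100 and 92.5 and 88.1 CPM at PD800. Both PD800 libraries lay above both PD100 libraries, and the mean was 2.46-fold higher at PD800 in CPM (log2 fold change 1.30 ± 0.13 SE) and 1.95-fold higher in TPM. *Ece1* (ENSMUSG00000057530.14, chr4:137862237-137965229, plus strand), whose product makes active endothelin, had 63.4 and 56.9 CPM at PD100 and 51.04 and 51.03 CPM at PD800. These groups did not overlap either, but the log2 fold change was only -0.24 ± 0.08 (SE). In TPM, PD800 replicate 1 (15.37) stood close to the PD100 libraries (15.57 and 16.08), and PD800 replicate 2 (11.63) stood apart.

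*Dpp4* (ENSMUSG00000035000.8, chr2:62330073-62412231, minus strand), also known as CD26, which inactivates incretins and several chemokines, had 14.3 and 11.5 CPM at PD100 and 13.4 and 12.4 CPM at PD800. The PD800 values lay between the PD100 values, and the log2 fold change was -0.00 ± 0.13 (SE). Its neighbour and closest relative *Fap* (ENSMUSG00000000392.17, chr2:62500943-62574075, minus strand), named for activated fibroblasts, lies 88.7 kb away. *Fap* had counts of 5 and 1 at PD100 and of 1 and 0 at PD800, at or under 3 in 3 of the 4 libraries, and it did not pass the expression filter. The ratio of its library-scaled sums, PD100 over PD800, was 5.54, with an exact 95% counting interval of 0.672 to 255 that spans 1.

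*Mmp14* (ENSMUSG00000000957.11, chr14:54431612-54445364, plus strand), the membrane-anchored collagenase, had 31.4 and 32.2 CPM at PD100 and 20.8 and 21.2 CPM at PD800. The replicates lay within 1 CPM of each other in each group, and the mean was 1.51-fold lower at PD800 (log2 fold change -0.60 ± 0.08 SE). *Adam19* (ENSMUSG00000011256.16, chr11:46055992-46147343, plus strand), a disintegrin metalloproteinase, had 69.2 and 63.7 CPM at PD100 and 25.3 and 23.9 CPM at PD800. It was 2.70-fold lower at PD800 (log2 fold change -1.43 ± 0.08 SE), and its groups were far apart relative to the spread within them. The plot of CPM by library shows the 10 genes on their own scales.

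**Figure D1:**
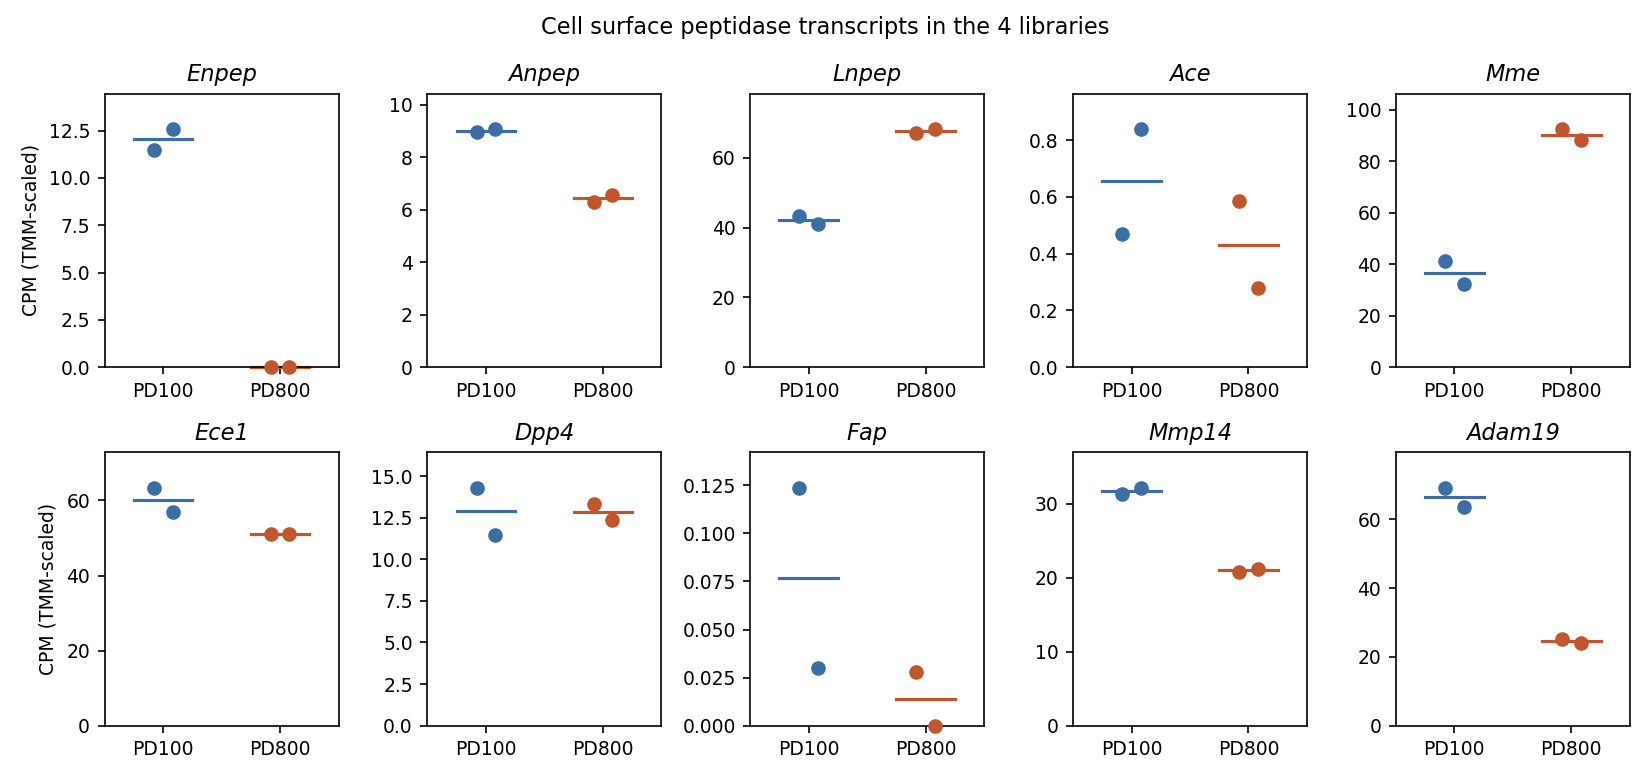
Library-scaled counts (CPM, y axis from 0, a scale of its own for each gene) of the 10 peptidase genes in the 2 PD100 and 2 PD800 libraries; points are libraries and lines are group means. *Enpep* stood at 11.5 and 12.6 CPM at PD100 and at 0 and 0.0311 CPM at PD800, *Mme* and *Lnpep* were higher in both PD800 libraries, and the CPM groups of *Dpp4* and *Ace* overlapped.

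Of the 10 genes, 9 passed the expression filter, *Fap* being the exception. A gene was called where it differed by more than 2-fold with an adjusted p under 0.01. By this rule, 2 of the 9 were lower at PD800 (*Enpep* and *Adam19*), against 8.81% of all tested genes. In the other direction 1 was higher (*Mme*), against 6.28% of all tested genes, and 6 were not called. The CPM values of the groups did not overlap for 5 of the 9 in the lower direction, against 36.3% of all tested genes, and for 2 in the higher direction, against 37.4%. Because the contrast was known when the genes were chosen, nothing is read from these counts. The fitted log2 fold change was below 0 for 7 of the 9, and the median over all tested genes was 0.01. Placed among all tested genes, 7.58% had a lower log2 fold change than *Adam19*, 20.5% than *Mmp14*, 24.2% than *Anpep*, 49.1% than *Dpp4*, 83.9% than *Lnpep* and 94.2% than *Mme*.

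TPM values allow levels to be compared between genes. At PD100 the highest was *Ece1* (15.8 TPM ± 0.361, SD, n = 2), followed by *Mmp14* (9.97 ± 0.495), *Adam19* (8.64 ± 0.750), *Mme* (7.93 ± 0.141) and *Lnpep* (6.24 ± 0.693). *Enpep* (2.46 ± 0.0566), *Anpep* (2.43 ± 0.566) and *Dpp4* (2.34 ± 0.509) came next, and their libraries overlapped, so these neighbours did not differ beyond their spread. *Ace* (0.130 ± 0.0283) and *Fap* (0.0250 ± 0.0212) were far below.

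At PD800 *Mme* (15.5 TPM ± 0.700) and *Ece1* (13.5 ± 2.64) overlapped at the top. *Lnpep* (8.44 ± 0.233), *Mmp14* (5.64 ± 0.219), *Adam19* (2.73 ± 0.163), *Dpp4* (2.18 ± 0.276), *Anpep* (1.44 ± 0.0141) and *Ace* (0.0650 ± 0.0354) followed without overlap. *Enpep* and *Fap* both stood at 0.005 TPM. *Mme* thus held the fourth place at PD100 and the first at PD800, *Lnpep* the fifth and the third, and *Enpep* the sixth and, with *Fap*, the last. Summed over the 10 genes, the level was 57.1 and 54.9 TPM at PD100 and 51.5 and 47.4 TPM at PD800. The 3 highest genes made up 61.4% and 61.6% of that sum at PD100 and 75.6% in both PD800 libraries.

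**Figure D2:**
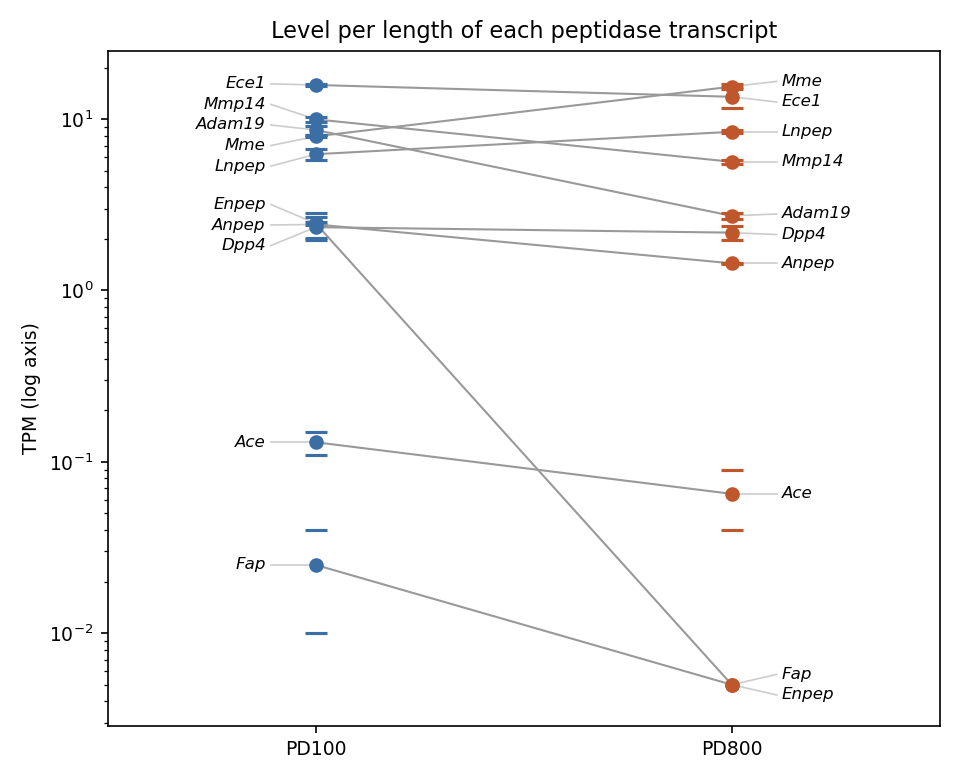
Mean TPM (log axis) of each peptidase gene at PD100 and PD800, points joined by gene, with short bars for the 2 libraries where the mean was above 0.02. *Mme* and *Lnpep* rank higher at PD800 than at PD100, and *Enpep* stands at 2.46 TPM at PD100 and at 0.005 TPM at PD800.

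TPM and CPM are not scaled alike: the median log2 difference of all tested genes was -0.12 on log2(TPM + 1) and -0.21 on log2(TPM + 0.1), against 0.01 for the edgeR fit. Most members accordingly stood lower at PD800 in TPM than in CPM. *Adam19* was 3.17-fold lower in TPM, *Ace* 2.0-fold lower, *Mmp14* 1.77-fold lower and *Anpep* 1.69-fold lower. *Lnpep* was 1.35-fold higher. The tested members kept their sign under every scaling except *Dpp4*, whose TPM was 2.70 and 1.98 at PD100 and 2.37 and 1.98 at PD800 and whose groups overlapped on both scales.

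The 5 tested genes whose TPM pattern over the 4 libraries was nearest to that of *Enpep* (Euclidean distance in log2(TPM + 0.1)) were *Hkdc1* (distance 0.225), *Ifi202b* (0.394), *Zscan4f* (0.546), *Bmper* (0.618) and *Foxa2* (0.678). They lie on chromosomes 10, 1, 7, 9 and 2, while *Enpep* lies on chromosome 3. *Hkdc1*, a hexokinase-like gene, had counts of 327 and 404 at PD100 and of 1 and 3 at PD800. *Ifi202b* had 182 and 153 against 2 and 2, and *Zscan4f* had expected counts of 224.12 and 140.47 against 1.57 and 0. *Bmper*, a BMP-binding protein, had 466 and 354 against 7 and 7. *Foxa2*, an endoderm transcription factor, had 230 and 147 against 1 and 1. These genes were picked for their likeness to *Enpep*, and the match rests on 4 libraries, so their pattern carries no test.

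The promoter of *Enpep* is shown beside that of *Lnpep*, because both encode aminopeptidases and their RNA levels differed between PD100 and PD800 in opposite directions. Both are the 250 bases before a RefSeq start (GRCm38.p6), read 5′ to 3′ on the gene's strand, with each CpG in capitals. The letters searched were CG and TATAAA on either strand, and neither motif contains the other.
Enpep, chr3:129332750-129332999, minus strand: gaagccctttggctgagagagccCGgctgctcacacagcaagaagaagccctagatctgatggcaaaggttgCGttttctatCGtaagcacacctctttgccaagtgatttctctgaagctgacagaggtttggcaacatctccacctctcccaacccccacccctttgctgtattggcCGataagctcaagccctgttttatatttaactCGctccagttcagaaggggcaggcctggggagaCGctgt
Lnpep, chr17:17624490-17624739, minus strand: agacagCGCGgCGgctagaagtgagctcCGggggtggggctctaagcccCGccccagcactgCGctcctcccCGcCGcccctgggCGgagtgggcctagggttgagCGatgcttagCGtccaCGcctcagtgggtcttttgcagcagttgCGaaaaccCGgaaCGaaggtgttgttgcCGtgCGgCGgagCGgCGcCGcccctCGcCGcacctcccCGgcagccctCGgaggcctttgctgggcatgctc
The *Enpep* window held 6 CpG, which was also the median of the 32851 promoters in the table, and its GC content was 52.4%. The *Lnpep* window held 25 CpG and had a GC content of 70%, and 10.7% of all promoters held as many CpG. TATAAA occurred in the *Enpep* window only on the strand opposite to the one shown, as tttata, and not in the *Lnpep* window. It occurred in 12.4% of all promoters of this length. Of the members, 9 had 17 promoters in the table, among which *Anpep* had 23 CpG, *Mmp14* 10 and *Dpp4* 4. TATAAA occurred in 3 of these 17: the *Enpep* window, that of *Dpp4* and that of a start of *Ace*. The starts of a gene could differ widely, as in *Mme*, with 2, 27 and 27 CpG, and *Ece1*, with 22, 23, 14 and 5. The files do not say which start was used, and these letters are a description of the windows only.

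The chromosomal surroundings of the members were read from the same fit. For each member the 40 nearest tested genes were taken, and their median log2 fold change was 0.31 around *Enpep*, beside 0.01 for all tested genes. It was 0.21 around *Anpep*, 0.15 around *Lnpep*, 0.14 around *Mme*, 0.22 around *Ece1*, 0.10 around *Ace* and 0.03 around *Fap*. The medians around *Dpp4* (-0.01), *Mmp14* (-0.28) and *Adam19* (-0.38) were below 0.

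Single neighbours varied. The unnamed gene *Gm35986*, 195 kb from *Enpep*, had a log2 fold change of 1.12 and was not called (edgeR adjusted p = 0.0253). Next to *Adam19*, at 0.812 kb, *Nipal4*, a magnesium transporter gene, fell (log2 fold change -1.51 ± 0.24 SE, edgeR adjusted p = 0.00385). *Ifih1*, a sensor of viral RNA 21.7 kb from *Fap*, fell as well (log2 fold change -3.28 ± 0.20 SE, edgeR adjusted p = 0.000132). *Alpl*, alkaline phosphatase, 65.9 kb from *Ece1*, rose (log2 fold change 1.17 ± 0.08 SE, edgeR adjusted p = 0.000177), as did *Lix1* 62.0 kb from *Lnpep* (log2 fold change 1.12 ± 0.20 SE, edgeR adjusted p = 0.00589). *Ece1* and *Alpl* therefore had opposite signs, whereas *Adam19* and *Nipal4* had the same.

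**Figure D3:**
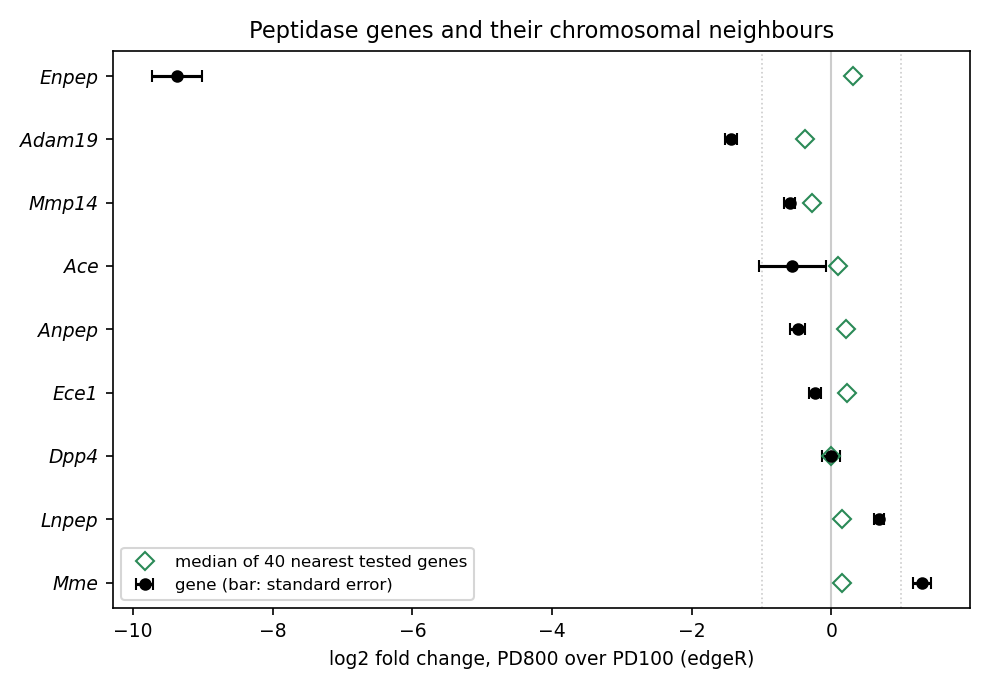
Log2 fold change of PD800 over PD100 from the edgeR fit for the 9 tested peptidase genes (black points, bars are standard errors) and the median of the 40 nearest tested genes on the chromosome (open diamonds). Dotted lines mark a change of 2-fold; *Enpep* stood at -9.37 while its neighbours' median was 0.31.

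Some annotated genes overlap the members, and whether the counting used strand is not given in the sources used here. Counts were between 2 and 17 for an antisense gene at *Ece1*, between 3.23 and 6.61 for one at *Dpp4*, and between 6 and 19 for a same-strand gene at *Anpep*. A same-strand gene at *Lnpep*, *Gm49784*, was not analysed here. *Dpp4* and *Adam19* had expected counts that were not whole, for example 383.06 and 2126.62 in PD100 replicate 2, so that RSEM divided some of their reads with other genes.

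Genes that work with these peptidases were listed by function: 91 genes in 8 lists of substrates, receptors, inhibitors, activators and family relatives. Of these, 62 were tested. At PD800, 16 had fallen (25.8%, against 8.81% of all tested genes), 3 had risen (4.84%, against 6.28%), and 43 were not called. The median log2 fold change of the 62 was -0.25, beside 0.01 for all tested genes. These lists, too, were written with earlier results of the libraries known.

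In the renin-angiotensin list, 7 of 13 genes were tested and 1 fell, with a median of 0.04. It was *Agtr1a*, the main angiotensin II receptor, with counts of 64 and 40 at PD100 and of 5 and 6 at PD800 (log2 fold change -3.08 ± 0.35 SE, edgeR adjusted p = 0.00111). The precursor *Agt* had 0 and 1 count at PD100 and 0 in both PD800 libraries, so the substrate of the route was at or under the floor throughout. *Thop1*, an oligopeptidase and the most abundant of the list, had 49.6 TPM at PD100 and 35.1 TPM at PD800 and was not called (log2 fold change -0.26, edgeR adjusted p = 0.0346). Of the angiotensin genes tested, members included, *Enpep* and *Agtr1a*, which degrade and bind angiotensin II, had the lowest fitted values.

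The second list held 26 ligands and receptors of endothelin, kinins, tachykinins, incretins, neuropeptide Y, chemokine CXCL12, enkephalin and natriuretic peptides, of which 13 were tested, 2 fell and 1 rose (median -0.09). *Edn2*, which encodes an endothelin precursor, had counts of 19 and 21 at PD100 and 0 in both PD800 libraries, which is at least 6.22-fold lower against the floor of 3 counts per library (edgeR adjusted p = 0.00296). *Nppb*, the precursor of brain natriuretic peptide and the most abundant of the list at PD100, fell from 62 and 79 to 1 and 6 counts (log2 fold change -4.19 ± 0.58 SE, edgeR adjusted p = 0.00230). *Npr3*, the clearance receptor for natriuretic peptides, rose from 116 and 95 to 248 and 222 counts (log2 fold change 1.27 ± 0.13 SE, edgeR adjusted p = 0.000808). At PD800, *Nppb* was thus lower, and *Npr3* and the member *Mme* were higher. *Nppa*, the other natriuretic peptide precursor of the list, did not pass the expression filter. Whether these RNA values bear on natriuretic peptide levels was not tested.

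The inhibitors, activators and partners of the metalloproteinases held the most calls: 14 of 16 were tested, 7 fell and 1 rose, with a median of -1.31. *Nrg1*, the neuregulin gene, fell from expected counts of 1182.49 and 869.64 to 70.95 and 68.60 (log2 fold change -3.75 ± 0.12 SE, edgeR adjusted p = 3.82e-05). *Timp3*, an inhibitor bound to the matrix, fell from 920.33 and 694.02 to 113.16 and 113.30 (log2 fold change -2.71 ± 0.11 SE, edgeR adjusted p = 5.37e-05). *Cd44*, a hyaluronan receptor that binds MMP14, fell from 1201 and 801 to 159 and 133 (log2 fold change -2.65 ± 0.14 SE, edgeR adjusted p = 8.95e-05).

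*Timp2* and *Mmp2*, which form with MMP14 the complex that activates the MMP2 precursor, were among the other 4 that fell and are named here after their values were seen. *Timp2* had 1134 and 945 counts at PD100 and 165 and 153 at PD800, and *Mmp2* had 872 and 793 against 284 and 240 (log2 fold changes -2.59 ± 0.09 and -1.56 ± 0.10 SE, edgeR adjusted p = 4.05e-05 and 0.000146). *Mmp14* itself, at -0.60, had the fitted value nearest to 0 of the 3 genes. Of the proprotein convertases called, *Furin*, also named after its values were seen, fell from 807 and 698 to 199 and 200 counts (log2 fold change -1.80 ± 0.10 SE, edgeR adjusted p = 0.000113). *Pcsk6* rose from 901 and 767 to 2409 and 2115 counts (log2 fold change 1.55 ± 0.08 SE, edgeR adjusted p = 7.42e-05). *Bsg*, an inducer of metalloproteinases and the most abundant of the list, had 190 TPM at PD100 and 166 TPM at PD800 and a log2 fold change of 0.05 on the count scale (edgeR adjusted p = 0.636).

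Family relatives moved in both directions. Of the M1 aminopeptidases, 5 of 8 were tested, 1 fell and 1 rose, with a median of -0.88. *Erap1*, which trims peptides for antigen presentation inside the cell, fell from 669.86 and 458.71 to 112.09 and 77.27 (log2 fold change -2.46 ± 0.17 SE, edgeR adjusted p = 0.000196). *Lta4h*, a cytosolic enzyme of leukotriene synthesis and the most abundant of the list at PD800, rose from 2437 and 1880 to 5120 and 4437 counts (log2 fold change 1.27 ± 0.08 SE, edgeR adjusted p = 0.000134). Neither of these relatives acts at the cell surface as its main site.

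Of the prolyl oligopeptidase relatives of *Dpp4* and *Fap*, 6 of 7 were tested, and *Prepl* alone was called, lower, just past the fold threshold (log2 fold change -1.01 ± 0.09 SE, edgeR adjusted p = 0.000533). *Apeh*, the most abundant of these, had 9.25 TPM at PD100 and 10.5 TPM at PD800 and was not called (edgeR adjusted p = 0.0230). Of the neprilysin relatives, 2 of 5 were tested. *Mmel1*, the neprilysin-like gene, fell from 65 and 38 to 16 and 15 counts (log2 fold change -1.59 ± 0.30 SE, edgeR adjusted p = 0.00734), the opposite direction to that of *Mme*. *Ecel1*, the other relative tested, had 14 and 14 counts at PD100 and 29 and 24 at PD800 and was not called (log2 fold change 1.02 ± 0.30 SE, edgeR adjusted p = 0.0345), a sign shared with *Mme*.

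All 5 membrane-type MMP relatives were tested, with a median of 0.09. *Mmp15*, the most abundant at PD100, fell from 324 and 292 to 114 and 109 counts (log2 fold change -1.35 ± 0.13 SE, edgeR adjusted p = 0.000632), and the other 4 were not called. Of the ADAM relatives, 10 of 11 were tested, with a median of -0.41. *Adam12*, meltrin alpha, paired by name with *Adam19*, meltrin beta, fell from 77 and 70 to 7 and 15 counts (log2 fold change -2.61 ± 0.38 SE, edgeR adjusted p = 0.00266), and *Adam8* from 433 and 382 to 146 and 98 (log2 fold change -1.63 ± 0.16 SE, edgeR adjusted p = 0.000623). *Adam23*, the most abundant of the list, had 21.9 TPM at PD100 and 27.9 TPM at PD800 and a log2 fold change of 0.66, which did not reach the fold threshold.

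**Figure D4:**
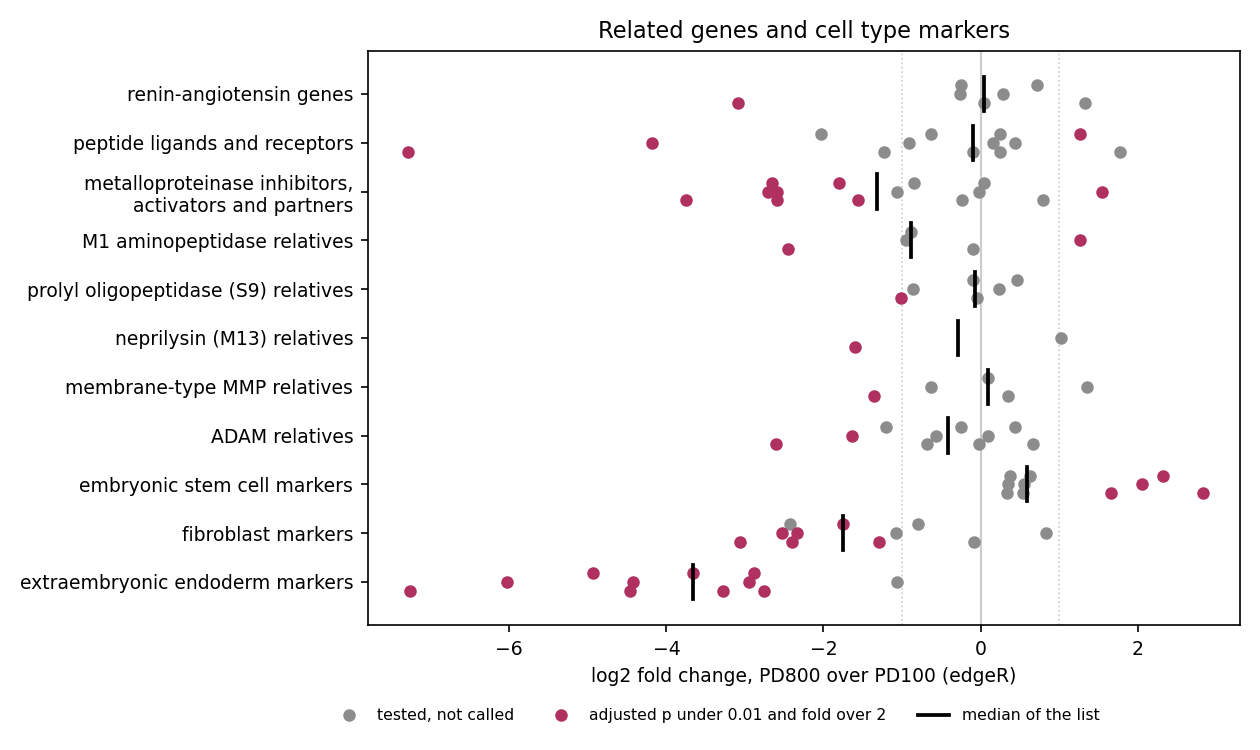
Log2 fold change of PD800 over PD100 from the edgeR fit (x axis) for each tested gene of the 8 related lists and 3 marker lists (y axis). Coloured points were called (more than 2-fold, adjusted p under 0.01), and black bars are list medians, the lowest of which (-3.66) is that of the extraembryonic endoderm markers.

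Marker lists moved in the same contrast. All 10 embryonic stem cell markers were tested and 4 rose, the log2 fold changes lying between 0.33 and 2.84, with summed levels of 1523 and 1825 TPM at PD100 and 2221 and 2265 TPM at PD800. The defining markers of the labelled cell type were thus present in every library. Of 12 extraembryonic endoderm markers, 11 were tested and 10 fell, their median on the log2 scale being -3.66, and their summed level was 245 and 265 TPM at PD100 against 15.5 and 15.7 TPM at PD800. *Col4a1*, a basement membrane collagen, took most of that sum at PD100, *Foxa2* was at 1 count in each PD800 library, and *Afp* had 3 and 4 counts at PD100 and 0 in both PD800 libraries. Of 12 fibroblast markers, which feeder cells would carry, 11 were tested and 6 fell, with a median of -1.75, a range of -3.07 to 0.84 and a summed level of 18.8 and 19.9 TPM against 10.04 and 9.70 TPM. *Lum* had a count of 0 in 3 libraries and of 1 in the other. The part of these cell types in the values of *Enpep*, *Adam19*, *Mmp14* and the related genes was not tested.

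The total expected count was between 32454121 and 38492149 per library. With 2 libraries against 2, a two-sided exact permutation test of a single gene cannot give a p under 0.333, so the p-values of the related genes rest on the spread that edgeR estimates over all genes. The duplicates are described as biological, but no separate cultures are named, so the p-values measure the spread between these samples.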

How the data were processed

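Bulk RNA of 4 libraries (PD100 and PD800, 2 each, grouped by the population doubling in the labels) was analysed. The labels name total RNA, while the study's text speaks of mRNA sequencing. From paired-end reads aligned to mm10 (STAR 2.5.3a), the authors deposited RSEM 1.3.0 expected counts, in which reads shared by genes are divided, and TPM values, scaled by RSEM for length and to one total per library. The annotation release is not given in the sources used here. GENCODE M21 gave coordinates and transcripts, and 53274 of 53379 identifiers were found in it.

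Expected counts were rounded and fitted with edgeR 4.0.16 under R 4.3.3. TMM scaling, a minimum count of 10 in filterByExpr and the quasi-likelihood test were used, with Benjamini-Hochberg adjustment over 19148 genes. Calls needed more than 2-fold and an adjusted p under 0.01. TMM factors were between 0.960 and 1.05. SE is the absolute log2 fold change divided by the root of the F statistic. Counts of PD100 and PD800 replicates differed by more than sampling noise (chi-square per degree of freedom 66.3 and 10.2). Genes named were the members, the 5 genes nearest to Enpep, tested neighbours and an overlapping gene. From each related list, the called genes (at most 3 in each direction) and the gene with the highest mean TPM over the libraries were named. Agt, Timp2, Mmp2, Furin and Ecel1 were named beyond this rule. The marker lists are given mainly by counts and medians, and the few markers named were not all chosen by it. Of the listed genes, Aopep had no matching identifier and Ece2 had 2, and neither was used. The members and lists were chosen with earlier results of these data known. Alternatives were DESeq2 1.42.0, other scaling and filters, limma 3.58.1 on log2 TPM, the replicate block and leaving out each library. The procedure was tested on simulated data.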

Additional observations from a re-analysis of the deposited data

How the results depend on the processing

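The number of members called was 2 lower and 1 higher under DESeq2, its size factors, upper-quartile scaling, no expression filter, the replicate block and with each library left out. With at least 10 counts in every library, 1 member was called lower, because that filter removes *Enpep*. On the log2 TPM scale with limma, 0 members were called higher with a pseudocount of either 1 or 0.1, and the log2 fold change of *Mme* was between 0.88 and 1.49 over all alternatives. On log2(TPM + 1) all genes called lower numbered 920 and higher 297, against 1686 and 1202 for edgeR, and 10 related genes were lower, against 16. On log2(TPM + 0.1), 533 of all genes were called higher. The higher calls were 24.4% and 23.1% of all calls on these 2 scales, against 41.6% for edgeR. The cause was not tested. Related genes called higher numbered 5 without an expression filter, against 3.

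With the replicate number as a block, related genes called higher numbered 5 and called lower 19, and all genes 1956 lower and 1461 higher. Same-numbered libraries deviated together with a correlation of 0.265 across genes, but the labels do not say that a number marks a shared batch.

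With 1 library left out, all genes called lower ranged from 1274 to 1893 and higher from 880 to 1514, and the related genes called lower from 14 to 18. The lone sample of a group is then assumed to vary like the other group. The log2 fold change of *Enpep* was -1.78 on log2(TPM + 1) and -4.61 on log2(TPM + 0.1), values that the pseudocount sets, and -8.44 and -11.8 without PD800 replicates 1 and 2. That of *Ace* was between -1.20 and -0.09, and that of *Dpp4* changed sign in 4 of 12 (-0.17 to 0.17). The other tested members kept their sign. Depth limits *Ace*, *Fap* and the PD800 level of *Enpep*.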
